A study of Mus musculus with 6 samples.

Results

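The genes described here are 10 keratin and epithelial identity genes, Krt7, Krt8, Krt14, Krt18, Krt19, Cdh1, Epcam, Cldn7, Prss8 and Esrp1, a list of gene names whose rule uses no measured value. Of these 10, 9 were among the 13823 genes listed in the expression table, and all 9 reached the filter on low values, at least 1 FPKM in at least 3 libraries, which 12257 genes passed. FPKM scales the fragments of a gene by transcript length and by library total, so that levels of different genes can be compared per length. Esrp1 was not among the listed genes, every one of which reached 0.5 FPKM in the higher of the 2 group means, and it is not analysed further. Expression was measured by RNA sequencing of tissue labelled breast from 6 male Balb/c mice. The vehicle group was 3 mice labelled DMSO (dimethyl sulfoxide), and the treated group was 3 mice given isotoosendanin (ITSN) intragastrically at 1 mg/kg per day. The labels give no age, no length of treatment and no statement of whether the tissue was tumour. The series title places ITSN, a plant triterpenoid, against the TGF-β receptor TGFβR1 and the epithelial-mesenchymal transition (EMT) in triple-negative breast cancer, and the genes below belong to the epithelial side of that transition.

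Keratins are the intermediate filament proteins of epithelial cells. A type II keratin such as Krt8 or Krt7 assembles with a type I keratin such as Krt18 or Krt19, and simple and glandular epithelia, mammary luminal cells among them, make mainly these, while basal and myoepithelial cells make Krt5 and Krt14. Epithelial cells are held together by the cadherin Cdh1 at adherens junctions, by claudins such as Cldn7 at tight junctions and by the adhesion molecule Epcam, and their membrane serine proteases, among them prostasin (Prss8), act with matriptase and its inhibitors. In EMT, as described in vertebrate cells, Snail and Zeb repressors bind E-boxes in promoters such as that of Cdh1 while vimentin filaments are made.

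The libraries differed beyond treatment. The first principal component, with 54.1% of the variance, held vehicle 1 at -43.2 and the other 5 libraries at -4.63 to 20.1. Mitochondrially encoded transcripts took 32.3% of the FPKM sum in vehicle 1, 22.4% and 17.5% in vehicle 2 and 3 and from 13.5% to 15.6% in ITSN. The number of reads behind a value is unknown, since whole reads could not be recovered from the low FPKM values. Results that rest on vehicle 1 are therefore given with and without it.

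The abundant members were the simple epithelial keratins Krt18 and Krt8, the partners that form the filaments of simple epithelia. Krt18 was at 191, 250.3 and 279.5 FPKM in the vehicle mice, against 282, 269 and 301 FPKM in the treated mice. Krt8 was at 140.1, 207 and 228 FPKM in the vehicle mice, against 224, 226 and 236 FPKM in the treated mice, with the mice always given in the order 1, 2 and 3. In both genes vehicle 1 was the lowest library, and vehicle 3 lay within the ITSN range, so the groups overlapped. Their mean levels ranked 46 and 57 among all listed genes. The next member, Epcam, stood at a mean of 8.19 FPKM over the 6 libraries against 210.3 FPKM for Krt8, a gap that no library bridged. By mean level the order went on with Cdh1, Krt19, Krt7, Prss8, Krt14 and Cldn7, and the ranges over the 6 libraries overlapped between all neighbours in that order except Krt8 and Epcam. Vim, the mesenchymal intermediate filament gene, was at a mean of 271 FPKM, next to Krt18 at 262 FPKM, so transcripts of both filament systems were abundant in this tissue. Krt8 has 1 pseudogene and Krt18 has 2 at over 85% transcript identity along 300 bases or more, none of them listed, so reads shared with these copies could not be followed. Together Krt8 and Krt18 made up from 96.9% to 98.8% of the summed FPKM of the 9 keratin genes listed.

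Krt8 and Krt18 kept nearly the same proportion in every library. The Krt8 to Krt18 ratio of FPKM was 0.733, 0.826 and 0.817 in the vehicle mice, against 0.794, 0.842 and 0.784 in the treated mice, while the level of Krt8 itself spanned 1.63-fold within vehicle. The mean log2 ratio differed by 0.03 between the groups (ITSN minus vehicle, exact two-sided permutation p = 0.8, where 3 against 3 cannot go below 0.1), and by -0.03 without vehicle 1. On the log2(FPKM + 1) scale used for all tests of single genes, the difference between ITSN and vehicle was 0.26 for Krt18 (95% interval -0.12 to 0.63, limma adjusted p = 0.41) and 0.28 for Krt8 (95% interval -0.16 to 0.73, limma adjusted p = 0.44). Without vehicle 1 the differences were 0.10 and 0.07. Both genes are rich in GC, at 56.4% and 57.1% against a median of 48.6% over the tested genes, and after removal of a GC trend from each library the differences were 0.05 and 0.06. With the GC trend removed and vehicle 1 left out they turned to -0.09 and -0.14.

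**Figure D1:**
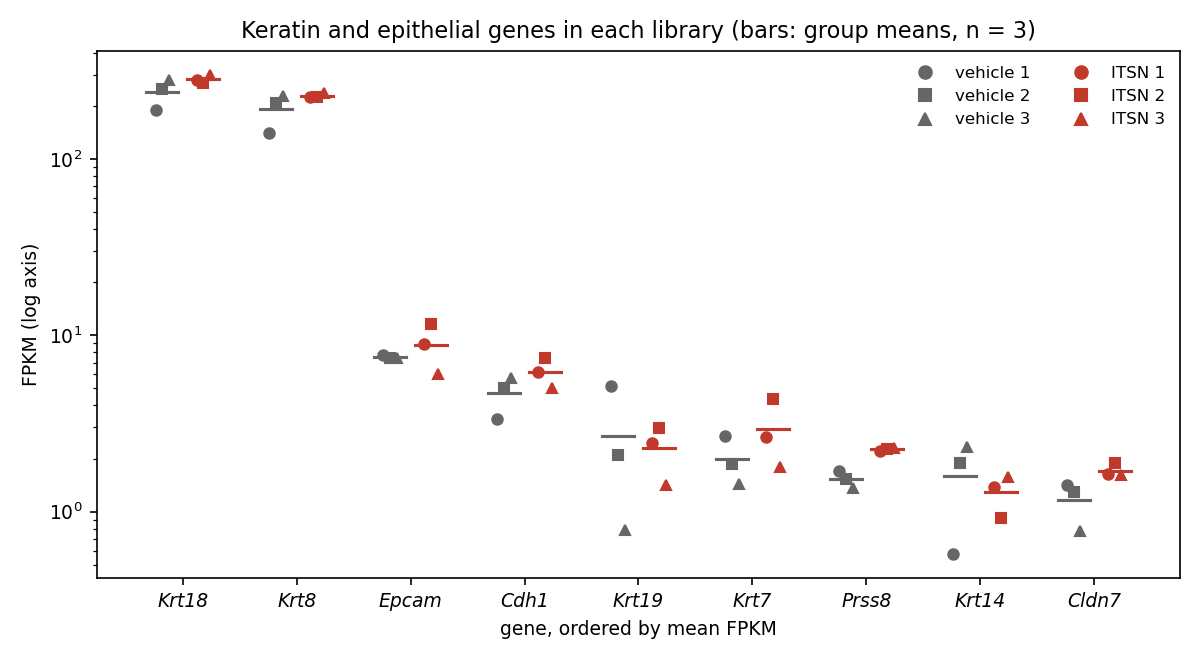
FPKM (log axis) of the 9 listed keratin and epithelial genes in each vehicle (grey) and ITSN (red) library, with bars for the group means of 3 libraries. Krt18 and Krt8 lie between 140 and 301 FPKM and all other members at or under 11.6 FPKM.

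The start regions of Krt8, Krt18 and Epcam are shown because these are the most abundant keratins and adhesion gene of the set and because E-boxes are the letters that Snail and Zeb factors bind in vertebrates. Krt8 (ENSMUSG00000049382.9, chr15:101996711-102004342, minus strand) and Krt18 (ENSMUSG00000023043.6, chr15:102028216-102032026, plus strand) are neighbours on chromosome 15, and Epcam (ENSMUSG00000045394.8, chr17:87635979-87651106, plus strand) lies on chromosome 17, all positions being mm10 from the deposited table. Each window holds 250 bases before and 50 after the annotated start, 5′ to 3′ on the strand of the gene, from RefSeq on GRCm38.p6, with the E-box CACCTG or its reverse complement CAGGTG in capitals. The windows are chr15:102004293-102004592 for Krt8, chr15:102027966-102028265 for Krt18 and chr17:87635729-87636028 for Epcam.
Krt8: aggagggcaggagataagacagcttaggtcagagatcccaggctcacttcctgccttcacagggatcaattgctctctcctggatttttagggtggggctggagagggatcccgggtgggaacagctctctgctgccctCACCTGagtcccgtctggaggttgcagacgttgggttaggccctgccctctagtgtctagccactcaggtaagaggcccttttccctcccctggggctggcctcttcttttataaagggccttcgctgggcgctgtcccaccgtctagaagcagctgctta
Krt18: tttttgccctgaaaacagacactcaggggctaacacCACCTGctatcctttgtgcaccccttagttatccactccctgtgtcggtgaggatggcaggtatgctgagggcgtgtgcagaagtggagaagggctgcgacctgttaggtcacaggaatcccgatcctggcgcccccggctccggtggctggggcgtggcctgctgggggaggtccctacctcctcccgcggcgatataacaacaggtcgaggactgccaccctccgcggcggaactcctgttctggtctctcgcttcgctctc
Epcam: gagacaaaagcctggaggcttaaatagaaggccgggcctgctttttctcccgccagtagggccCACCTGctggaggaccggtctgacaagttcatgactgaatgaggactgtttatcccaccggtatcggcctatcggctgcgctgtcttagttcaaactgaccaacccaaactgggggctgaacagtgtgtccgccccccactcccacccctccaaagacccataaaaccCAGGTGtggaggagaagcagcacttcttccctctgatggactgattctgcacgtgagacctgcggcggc
The E-box begins at -111 in Krt8 and at -214 in Krt18, counted from the start base as 0. Epcam has 2, which begin at -187 and -19. RefSeq windows were found for 6 members, 7 windows in all, of which 5 windows held the motif, those of Krt7, Krt8, Krt18 and Epcam and 1 of the 2 of Cldn7, while that of Krt14 did not. The windows of Krt7 and Krt14, and the Cldn7 window with the motif, lie inside the listed span of the gene and not at its listed start. Of 32851 windows of the same length over all genes, 20.2% held the motif. A match is a run of letters and not a measured site, and no binding was measured here.

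The other keratins were low and varied more between mice. Krt7, the type II keratin of ductal and other simple epithelia (ENSMUSG00000023039.16, chr15:101411043-101430313, plus strand), was at 2.67, 1.87 and 1.43 FPKM in the vehicle mice, against 2.66, 4.33 and 1.78 FPKM in the treated mice. Krt19, the small type I keratin of luminal and ductal cells (ENSMUSG00000020911.14, chr11:100140810-100148665, minus strand), was at 5.15, 2.08 and 0.784 FPKM in the vehicle mice, against 2.44, 2.99 and 1.41 FPKM in the treated mice. Krt14, the type I keratin of basal and myoepithelial cells (ENSMUSG00000045545.8, chr11:100203162-100207548, minus strand), was at 0.575, 1.90 and 2.32 FPKM in the vehicle mice, against 1.38, 0.914 and 1.57 FPKM in the treated mice. In all 3 the groups overlapped. Krt19 spanned 6.57-fold within vehicle with vehicle 1 the highest library, and Krt14 spanned 4.02-fold with vehicle 1 the lowest, so the luminal and the basal keratin stood in opposite order in the vehicle mice. In ITSN the libraries were again in opposite order, with ITSN 2 the highest for Krt19 and the lowest for Krt14.

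None of these 3 keratins passed the test between groups. The difference was 0.36 log2 units for Krt7 (95% interval -0.27 to 0.99, limma adjusted p = 0.48) and -0.01 for Krt19 (95% interval -1.06 to 1.04, limma adjusted p = 0.99). The interval for Krt19 reaches past 1 log2 unit in either direction. For Krt14 the difference was -0.12 (95% interval -0.80 to 0.56, limma adjusted p = 0.85). Leaving out vehicle 1 moved it to -0.45 (limma adjusted p = 0.12), and removing the GC trend as well to -0.67 (limma adjusted p = 0.082), with Krt19 at 0.45 and 0.22 in these fits. Krt14 resembles Krt16, Krt17 and Krt42 at over 85% identity of transcript sequence along 300 bases or more, and none of these was listed, so how reads were shared among them could not be followed.

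Of 21 other keratin genes looked for, 4 were listed. Krt10, the type I keratin of suprabasal epidermis, was at 1.37, 2.36 and 3.42 FPKM in the vehicle mice, against 1.00, 1.94 and 0.828 FPKM in the treated mice (log2 difference -0.57, limma adjusted p = 0.30). Its partner Krt1 ranged from 0 to 1.37 FPKM, Krt15 from 0.0720 to 0.795 FPKM and Krt80 from 0.172 to 1.02 FPKM, all under the filter. Krt5, the type II partner of Krt14, was not among the listed genes.

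Of the adhesion genes, Epcam and Cdh1 stood between the 2 abundant keratins and the low ones, and Cldn7 had the lowest mean of the 9 genes. Epcam, a homophilic adhesion molecule of epithelia, was at 7.75, 7.44 and 7.40 FPKM in the vehicle mice, against 8.98, 11.6 and 6.00 FPKM in the treated mice. The vehicle libraries lay within 1.05-fold of each other and the ITSN libraries within 1.93-fold, on both sides of vehicle. Cdh1, which encodes E-cadherin (ENSMUSG00000000303.12, chr8:106603351-106670246, plus strand), was at 3.37, 5.03 and 5.70 FPKM in the vehicle mice, against 6.16, 7.41 and 5.02 FPKM in the treated mice. Vehicle 1 was its lowest library, and ITSN 3 lay among the vehicle values. Cldn7, a tight junction claudin that also binds Epcam (ENSMUSG00000018569.12, chr11:69964779-69967885, plus strand), was at 1.42, 1.29 and 0.771 FPKM in the vehicle mice, against 1.63, 1.88 and 1.61 FPKM in the treated mice. Here every ITSN library was above every vehicle library, as for 21.8% of all tested genes.

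Cldn7 had a group mean of 1.16 ± 0.344 FPKM in the vehicle mice, against 1.70 ± 0.150 FPKM in the treated mice (SD, n = 3 each), and the ratio of the means was 1.47. Its log2 difference was 0.33 (95% interval 0.00 to 0.67, limma adjusted p = 0.24). The difference was 0.35 for Cdh1 (95% interval -0.12 to 0.82, limma adjusted p = 0.37) and 0.17 for Epcam (95% interval -0.32 to 0.66, limma adjusted p = 0.69). The value for Epcam rested on ITSN 2 and was -0.03 without it, and that for Cdh1 was 0.17 without vehicle 1. Removing the GC trend left Cdh1, with 50.7% GC, at 0.33 and moved Cldn7, with 57.0% GC, to 0.11. The Cdh1 to Epcam ratio of FPKM was 0.435, 0.676 and 0.770 in the vehicle mice, against 0.686, 0.639 and 0.837 in the treated mice. Its mean log2 differed by 0.23 (ITSN minus vehicle, exact two-sided permutation p = 0.5), and by -0.01 without vehicle 1.

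Prss8 had the smallest p of the 9 genes. It encodes prostasin, a membrane-anchored serine protease of polarized epithelia that acts with matriptase (ENSMUSG00000030800.10, chr7:127925716-127930104, minus strand). Its level was 1.71, 1.54 and 1.35 FPKM in the vehicle mice, against 2.20, 2.26 and 2.31 FPKM in the treated mice. The groups did not overlap, and the ITSN libraries lay within 1.05-fold of each other. The means were 1.53 ± 0.177 and 2.25 ± 0.0552 FPKM (SD, n = 3 each), a ratio of 1.47. The log2 difference was 0.36 (95% interval 0.14 to 0.59), and it did not pass adjustment over all genes (limma adjusted p = 0.11, and from 0.053 without vehicle 1 to 0.49 after GC removal over the settings tried). After GC removal it was 0.16. The value is uncertain, because exons of Prss8 overlap those of Kat8 on the opposite strand, and no source used here says whether counting was stranded. Kat8 ran from 3.55 to 4.44 FPKM among the vehicle mice and from 4.49 to 5.18 FPKM among the treated mice, also without overlap (log2 difference 0.20, limma adjusted p = 0.35). Exons of Krt8 and Krt7 likewise overlap those of a gene on the opposite strand, Gm36026 and Gm671, neither of them listed.

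Genes of the list of matriptase, prostasin and Epcam partners went in both directions. Spint2, St14 and Cd9 are named because they had the smallest unadjusted p of that list. Matriptase, St14, was at 6.58, 6.71 and 6.96 FPKM in the vehicle mice, against 8.53, 8.09 and 8.94 FPKM in the treated mice (log2 difference 0.30, limma adjusted p = 0.13). Spint2, a Kunitz inhibitor of matriptase and prostasin, was at 17.8, 15.7 and 14.8 FPKM in the vehicle mice, against 21.4, 21.2 and 19.9 FPKM in the treated mice (log2 difference 0.36, limma adjusted p = 0.12). In both genes every ITSN library lay above every vehicle library, as for 21.8% of all tested genes. Spint1, the related inhibitor, named after its values were seen, was at 6.31 to 8.92 FPKM in the vehicle mice, against 6.66 to 10.7 FPKM in the treated mice, with overlap. Cd9, a tetraspanin that associates with Epcam, lay the other way, at 134 to 238 FPKM in the vehicle mice, against 117 to 119.7 FPKM in the treated mice (log2 difference -0.57, limma adjusted p = 0.18, and -0.35 without vehicle 1). Of the 7 genes of this list that were tested, 5 were higher and 2 lower in ITSN and 0 passed, with a median log2 difference of 0.09 against 0.09 over all tested genes. Without vehicle 1 Spint2 passed (0.43, limma adjusted p = 0.041), where 5.49% of all tested genes passed and 3.35% passed as higher in ITSN, but not after additional GC removal (0.45, limma adjusted p = 0.068).

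Taking the 9 genes as a group, 7 were higher and 2 lower in ITSN, and 0 passed limma's adjusted threshold of 0.05, where 0.0571% of all tested genes passed, 0.049% as higher and 0.00816% as lower. At an unadjusted p under 0.05 there were 2 of 9, Prss8 and Cldn7, against 20.9% of all tested genes. The same 2 genes had groups that did not overlap, against 29.1% of all tested genes. These shares are near the background and are no result about the epithelial genes. The median log2 difference of the 9 genes was 0.28 and that of all tested genes 0.09, of which 64.0% were higher in ITSN. After trimmed-mean scaling between libraries the medians were 0.17 and -0.00, with 7 of 9 still higher against 49.2% of all tested genes. After removal of the GC trend they were 0.08 and 0.11. Without vehicle 1 the medians were 0.19 and 0.03, with 8 of 9 higher against 54.5% of all tested genes and 0 of 9 passing against 5.49%. Over all genes 7 passed (6 higher, 1 lower), against 108 (59 higher, 49 lower) after trimmed-mean scaling, 673 (410 higher, 263 lower) without vehicle 1 and 1 without ITSN 3, with 0 of the 9 among them in each case. In bulk tissue a larger share of epithelial cells and more RNA per epithelial cell cannot be told apart.

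**Figure D2:**
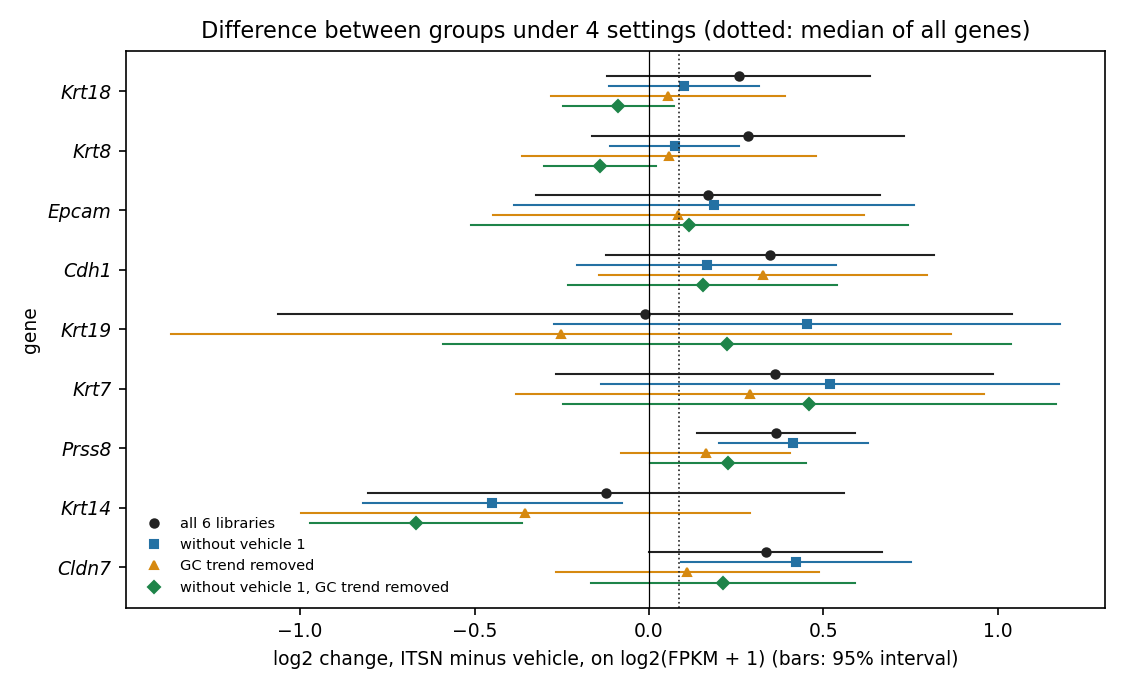
Difference between ITSN and vehicle on the log2(FPKM + 1) scale for each gene, with 95% intervals, from all 6 libraries, without vehicle 1, with the GC trend removed and with both. Krt18 and Krt8 move from 0.26 and 0.28 to -0.09 and -0.14 across the 4 settings, while Prss8 stays between 0.16 and 0.41; the dotted line marks the median of all tested genes, 0.09.

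The spread within a group was shared between genes. Vehicle 2 lay between vehicle 1 and vehicle 3 for all 9 genes, as it did for 73.2% of all tested genes. Vehicle 1 was the highest vehicle library for Krt7, Krt19, Epcam, Cldn7 and Prss8 and the lowest for Krt8, Krt18, Krt14 and Cdh1. ITSN 1 lay between the other 2 ITSN libraries for 7 of the 9 genes, against 63.7% of all tested genes, and ITSN 2 was the highest ITSN library for Krt7, Krt19, Cdh1, Epcam and Cldn7. Markers of other cells moved between the same libraries. All 9 fibroblast markers looked for were listed. Their summed level was 49.3, 146 and 193 FPKM in vehicle 1, 2 and 3. In the treated mice it was from 128 to 204 FPKM. The collagen genes Col1a1 and Col3a1 were the largest terms of the sum in vehicle 2 and 3. Among the 9, Pdgfra alone went the other way, at 14.8, 9.35 and 6.82 FPKM in vehicle 1, 2 and 3. All 7 skeletal muscle markers were listed, with sums of 2.65 to 11.4 FPKM in the vehicle mice, against 36.7, 77.2 and 5.63 FPKM in the treated mice. Ckm, the muscle creatine kinase gene, was listed at 0 in vehicle 1, vehicle 2 and ITSN 3, and the fast myosin gene Myh4 in vehicle 1 and vehicle 2. The part of these cells, and of the mitochondrial share, in the values above was not tested.

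Against vimentin, the 2 abundant keratins were higher in every ITSN library than in every vehicle library on the deposited values, but not once the GC trend was taken out. The summed FPKM of Krt8 and Krt18 was 1.53, 1.60 and 1.64 times that of Vim in vehicle 1, 2 and 3 and 1.90, 1.83 and 1.91 times in ITSN 1, 2 and 3. The groups did not overlap, and the ratio does not depend on the scaling of the libraries. The mean log2 ratio was 0.67 ± 0.05 among the vehicle mice, against 0.91 ± 0.03 among the treated mice (SD, n = 3 each). The difference was 0.24 (exact two-sided p = 0.1, the least possible with 3 against 3), and it was from 0.22 to 0.26 with any 1 library left out. Of all tested genes 27.9% had a ratio to Vim whose groups did not overlap, and 20.7% had one that was higher in ITSN. Krt8, Krt18 and Prss8 were the 3 of 9 members of that kind. The transcript of Vim has 46.5% GC, under that of both keratins. The ratio with the GC trend removed was not planned and was added after the data were seen. It was 1.75, 1.78 and 1.77 in the vehicle mice, against 1.72, 1.75 and 1.64 in the treated mice. The difference was -0.05, in the other direction (exact two-sided p = 0.1). The groups nearly touched, with vehicle 1 at 1.751 and ITSN 2 at 1.749. Vim itself averaged 270.4 ± 49.0 FPKM among vehicle mice and 272 ± 7.47 FPKM among treated mice (SD, n = 3 each), with limma adjusted p = 0.94.

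The 7 lower genes varied against Krt8 and Krt18 within both groups. Their summed FPKM was 0.0684, 0.0463 and 0.0389 of that of the 2 keratins in vehicle 1, 2 and 3 and 0.0503, 0.0634 and 0.0367 of it in ITSN 1, 2 and 3. The groups covered nearly the same range, with a difference of -0.03 in mean log2 ratio (exact two-sided permutation p = 1). The difference was 0.20 without vehicle 1 and 0.18 without ITSN 3, and it was -0.20 without vehicle 3 and -0.21 without ITSN 2.

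**Figure D3:**
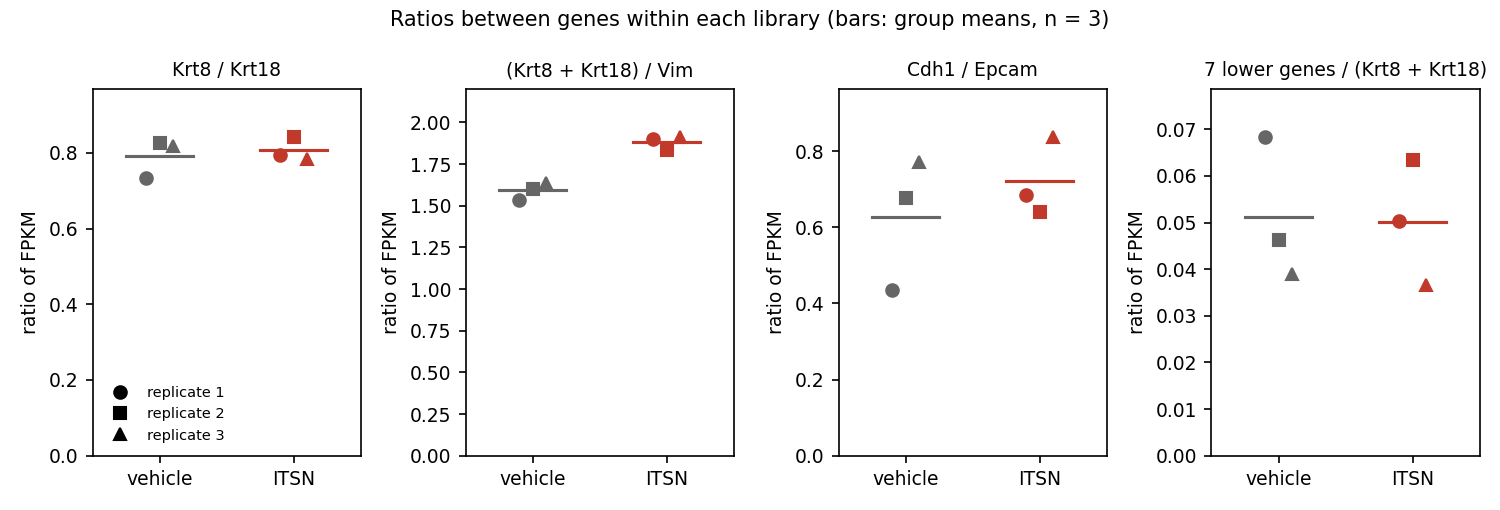
Ratios of FPKM within each library for Krt8 to Krt18, Krt8 plus Krt18 to Vim, Cdh1 to Epcam, and the 7 lower genes to Krt8 plus Krt18, with bars for group means of 3 libraries. Only the ratio to Vim separates the groups, at 1.53 to 1.64 in vehicle and 1.83 to 1.91 in ITSN. After removal of the GC trend, a check added after the data were seen, the difference turned to the other direction and the groups nearly touched.

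Other components of epithelial junctions and filaments showed a like mixture. For the list counts below, 64.0% of all tested genes were higher in ITSN on the deposited scale. Of 16 plakin, desmosome and keratinocyte-associated genes, 12 were tested and 0 passed. Of the 12, 7 were higher and 5 lower in ITSN (median log2 difference 0.12). The keratinocyte-associated genes Krtcap2 and Krtcap3 were among the 7. Pkp3, a desmosomal plakophilin, was at 2.77, 2.76 and 2.99 FPKM in the vehicle mice, against 4.55, 4.69 and 4.51 FPKM in the treated mice (log2 difference 0.54, limma adjusted p = 0.071). Its groups lay far apart compared with their spread. Of all tested genes 21.8% had groups that did not overlap and were higher in ITSN. Without vehicle 1 Pkp3 passed (0.53, limma adjusted p = 0.038), where 3.35% of all tested genes passed as higher in ITSN. After GC removal the difference for Pkp3 was 0.22 (limma adjusted p = 0.34). Dsg2, a desmosomal cadherin, lay the other way, at 3.76 to 5.13 FPKM in the vehicle mice, against 2.22 to 3.42 FPKM in the treated mice (log2 difference -0.50, limma adjusted p = 0.15). Krtcap3, a keratinocyte-associated membrane protein, was at 4.33 to 4.56 FPKM in the vehicle mice, against 5.12 to 7.19 FPKM in the treated mice (log2 difference 0.36, limma adjusted p = 0.17, and 0.12 after GC removal). The median of this list was 0.02 after GC removal, against 0.11 over all tested genes.

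Of 27 adherens and tight junction genes, 17 were tested, of which 11 were higher and 6 lower in ITSN and 0 passed (median log2 difference 0.05). After trimmed-mean scaling 8 of the 17 were higher, against 49.2% of all tested genes. Lsr, a lipoprotein receptor that also builds tricellular junctions, was at 12.1 to 14.1 FPKM in the vehicle mice, against 16.6 to 18.1 FPKM in the treated mice (log2 difference 0.39, limma adjusted p = 0.10). The polarity gene Llgl2 and the nectin Nectin2 had log2 differences of 0.41 and 0.31 (limma adjusted p = 0.15 and 0.22). The claudin Cldn4, chosen after its values were seen, was at 5.81, 3.19 and 1.58 FPKM in the vehicle mice, against 6.43, 6.91 and 5.85 FPKM in the treated mice. Its groups did not overlap, as for 21.8% of all tested genes in this direction, and vehicle 1 came close to ITSN. The log2 difference was 0.82 (limma adjusted p = 0.22). Without vehicle 1 it was 1.17 (limma adjusted p = 0.044), where 3.35% of all tested genes passed as higher in ITSN. With the GC trend removed as well it was 0.96 (limma adjusted p = 0.10). With GC removal and all libraries the differences were 0.12 for Lsr, 0.09 for Llgl2, 0.06 for Nectin2 and 0.60 for Cldn4.

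Among 19 other epithelial surface, laminin and integrin genes, 9 were tested, of which 7 were higher and 2 lower in ITSN and 0 passed (median log2 difference 0.28). After GC removal the median was 0.14, against 0.11 over all tested genes. Itgb4, the integrin subunit of hemidesmosomes that binds keratin filaments through plectin, was at 29.6, 26.2 and 25.2 FPKM in the vehicle mice, against 39.4, 38.4 and 39.2 FPKM in the treated mice (log2 difference 0.52, limma adjusted p = 0.076). Every ITSN library lay above every vehicle library, as for 21.8% of all tested genes. Itgb4 passed without vehicle 1 (0.58, limma adjusted p = 0.024), where 3.35% of all tested genes passed as higher in ITSN. After GC removal the difference was 0.21 (limma adjusted p = 0.39). Cd24a, a mucin-like surface protein of luminal and many other cells, was lower in each ITSN library, at 114 to 119.6 FPKM in the vehicle mice, against 75.1 to 95.7 FPKM in the treated mice (log2 difference -0.45, limma adjusted p = 0.10, and -0.30 after GC removal). Ank3, an ankyrin of the lateral membrane, had a log2 difference of 0.36 (limma adjusted p = 0.12). After trimmed-mean scaling, 6 of 12 plakin-list genes, 4 of 7 matriptase-list genes and 6 of 9 surface genes were higher in ITSN. The share over all tested genes was then 49.2%.

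**Figure D4:**
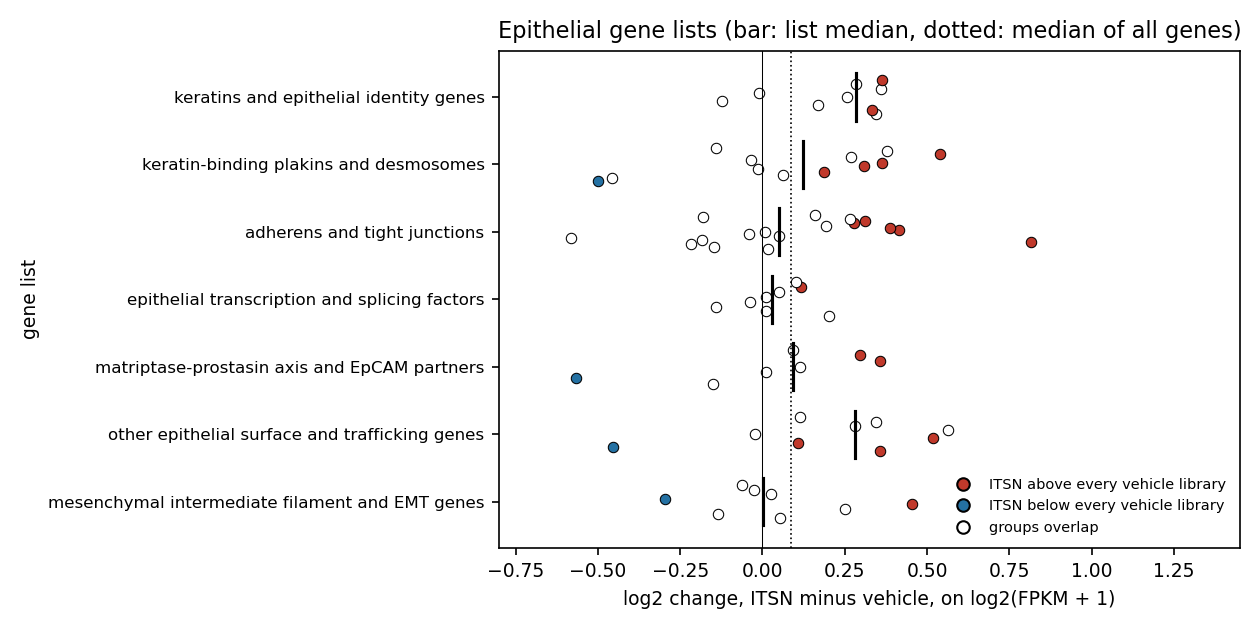
Log2 difference between ITSN and vehicle for each tested gene of 7 lists, filled where the groups did not overlap, with a bar for each list's median and a dotted line for the median of all tested genes (0.09). The list medians run from 0.00 in the mesenchymal genes to 0.28 in the keratins and epithelial identity genes and in the other surface genes (0.08 and 0.14 after GC removal, with all tested genes at 0.11), and each list has genes on both sides of 0.

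Regulators of epithelial identity spanned a wide range of levels, from means over the 6 libraries of 46.5 FPKM for Cebpb, 23.2 FPKM for Gata3 and 19.3 FPKM for Klf5 to 0.882 FPKM for Grhl2. Of 19 transcription and splicing factors 9 were listed and 8 tested, of which 6 were higher in ITSN and 0 passed (median log2 difference 0.03). After trimmed-mean scaling 2 of the 8 were higher, against 49.2% of all tested genes. Rbm47, an RNA-binding protein of epithelia, had the smallest p of the list, with a log2 difference of 0.12 (limma adjusted p = 0.49), followed by Gata3 at -0.14 and Tfap2a at 0.10 (limma adjusted p = 0.66 and 0.68). Grhl2, a grainyhead factor that maintains Cdh1 and claudin expression, also named after its values were seen, was at 0.669 to 1.21 FPKM over the 6 libraries, under the filter. Like Esrp1, its relative Esrp2 was not among the listed genes, and neither were Ovol1, Ovol2 or Trp63.

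Of 11 mesenchymal filament and EMT genes 8 were tested, 4 higher and 4 lower in ITSN, and 0 passed (median log2 difference 0.00). Without vehicle 1 the median was -0.17, against 0.03 over all tested genes. After trimmed-mean scaling 2 of the 8 were higher, against 49.2% of all tested genes. With the GC trend removed 5 of the 8 were higher, against 71.1% of all tested genes, and the median was 0.09, against 0.11. The repressor gene Snai1 was at 2.93 to 3.69 FPKM in the vehicle mice, against 4.03 to 6.05 FPKM in the treated mice (log2 difference 0.45, limma adjusted p = 0.16), and Twist1 at 18.1 to 22.8 FPKM and 15.6 to 16.5 FPKM (log2 difference -0.30, limma adjusted p = 0.18). After GC removal these were 0.15 and -0.59, neither passing (limma adjusted p = 0.60 and 0.20). Zeb1 and Zeb2 had log2 differences of -0.02 and -0.06 (limma adjusted p = 0.94 and 0.89), and the filament gene Nes had -0.13 (limma adjusted p = 0.70).

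Marker genes of mammary gland cells were listed only in part, and they do not settle which tissue was sampled. Of 16 luminal and secretory markers 6 were listed, among them Gata3, a luminal transcription factor, at 19.2 to 29.5 FPKM over the 6 libraries, and of the milk protein genes Csn3 was listed at 1.02 to 4.77 FPKM and Ltf at 1.07 to 2.41 FPKM, while Csn2, Wap and Lalba were not. Of 9 basal and myoepithelial markers 3 were listed, Acta2, Mylk and Myh11, and the defining genes Krt5 and Trp63 were not. Of 12 skin keratinocyte markers 4 were listed, Krt1, Krt10, Krt15 and Sbsn, and of these only Krt10 passed the filter. Their summed level, Krt10 included, was 3.24 to 6.12 FPKM in the vehicle mice, against 1.42 to 2.95 FPKM in the treated mice. The sum is thus no separate measure beside Krt10. The part of skin cells in the values of Krt14 and Krt10 was not tested. Of 7 adipocyte markers 3 were listed, and Adipoq and Plin1 were not. Leukocyte markers summed to 326 to 452 FPKM in the vehicle mice, against 375 to 432 FPKM in the treated mice, and endothelial markers to 21.4 to 31.5 FPKM and 18.1 to 25.5 FPKM. Of the tested genes, 1 of 6 luminal, 1 of 2 basal, 0 of 1 skin and 2 of 3 adipocyte genes were higher in ITSN. Also higher were 4 of 7 leukocyte, 0 of 5 endothelial, 7 of 9 fibroblast and 4 of 4 muscle genes. The share over all tested genes was 64.0%. In each list 0 passed on the deposited scale with all 6 libraries. Without vehicle 1 the counts were 3 of 6 luminal, 0 of 2 basal, 2 of 3 adipocyte and 2 of 7 leukocyte genes. For endothelial, fibroblast and muscle genes they were 0 of 5, 2 of 9 and 3 of 4, against 54.5% of all tested genes. The fibroblast median went from 0.40 to -0.04. Leukocyte genes lay on both sides, with log2 differences of 0.60 for Csf1r, 0.42 for Lyz2, 0.37 for Cd68 and 0.04 for Ptprc. S100a8 and S100a9 were at -0.49 and -0.51. The leukocyte gene with the smallest unadjusted p, Itgam, encodes an integrin subunit of myeloid cells. It was at 10.2, 14.1 and 18.3 FPKM in the vehicle mice, against 6.69, 7.43 and 6.31 FPKM in the treated mice (log2 difference -0.93, limma adjusted p = 0.085). It passed after trimmed-mean scaling (-1.03, limma adjusted p = 0.0486), quantile normalization and rescaling to nuclear genes. It also passed without vehicle 1 (-1.13, limma adjusted p = 0.029), where 5.49% of all tested genes passed. Once the GC trend was removed it did not pass (-0.90, limma adjusted p = 0.21).

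For Krt8, Krt18 and Cdh1, the 3 genes with the most similar profile over the 6 libraries were outside all lists used here. Likeness was measured as the root mean square difference between centred log2(FPKM + 1) values. For Krt8 the nearest were Tmem199, Asb8 and Eif3f, at 0.013, 0.020 and 0.023 log2 units, and for Krt18 they were Tns3, Cd200r4 and Ube4b, at 0.0060, 0.017 and 0.018. Krt18 came 140th in order of likeness to Krt8, at 0.065, and Krt8 came 259th in order of likeness to Krt18. These places leave out predicted genes, pseudogenes, clone names and mitochondrially encoded genes. For Cdh1 the nearest were Trappc1, F13a1 and Hal, at 0.051, 0.052 and 0.060.

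**Figure D5:**
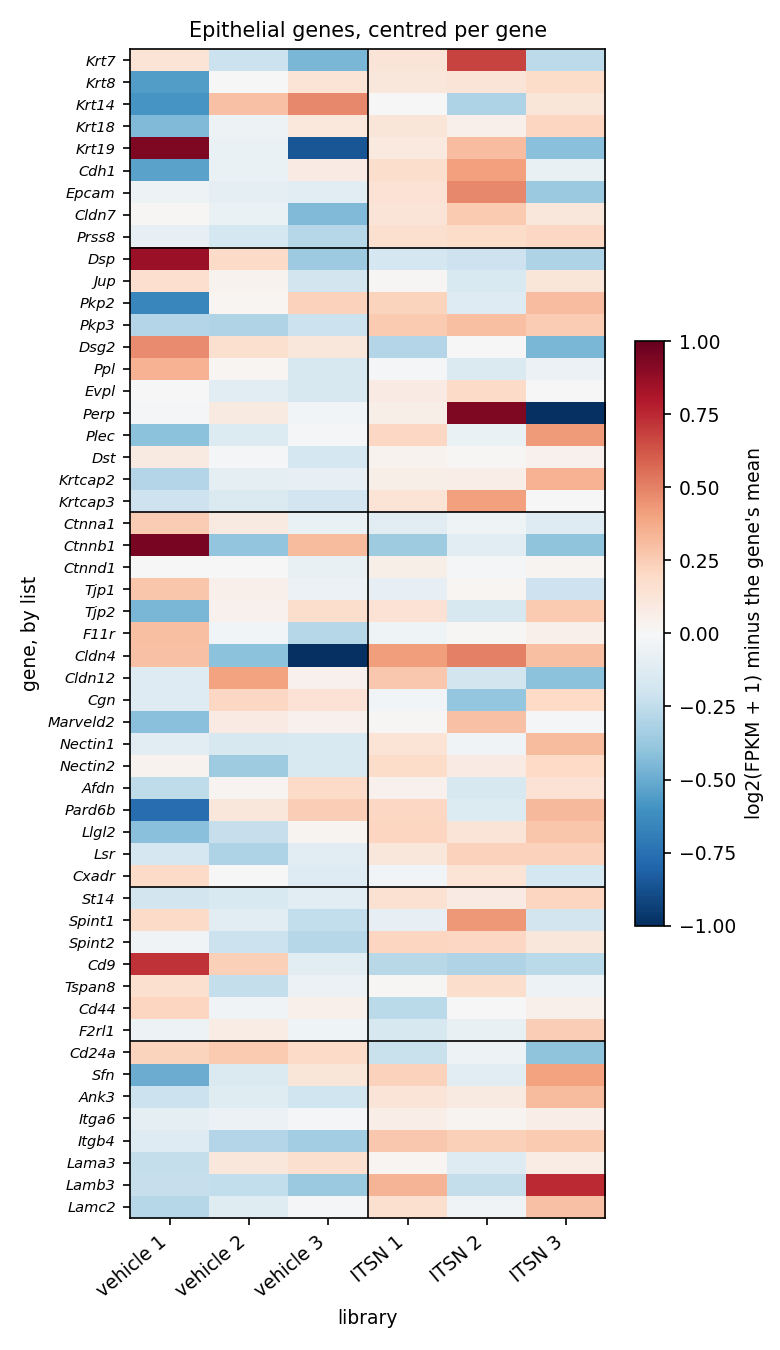
Centred log2(FPKM + 1) of 53 tested epithelial genes (rows, in the order of 5 lists) in the 6 libraries (columns), from blue, 1 log2 unit under the gene's mean, to red, 1 above it. The Krt8, Krt18, Krt14 and Cdh1 rows are lowest in vehicle 1, Krt19 is highest there, and Pkp3, Itgb4 and Prss8 are higher in all 3 ITSN libraries than in all 3 vehicle libraries.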

How the data were processed

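Tissue RNA of 6 mice, 3 per group by the treatment label, was sequenced from dUTP libraries, per the labels' protocols. The authors deposited 1 table of FPKM per gene and library, so named per the file headers, with 13823 genes and their mm10 positions; mm10 is also given in the submitters' processing notes. No source used here names the aligner or quantifier, or says whether counting used strand. A larger mitochondrial share lowers the FPKM of all other genes. The last ITSN column was matched by its description, whose number differs from the title.

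Values were analysed as log2(FPKM + 1), which understates differences of low genes. The 12257 genes that reached 1 FPKM in 3 or more libraries were compared in limma 3.58.1 under R 4.3.3 (lmFit, eBayes with trend, two-sided, Benjamini-Hochberg over these genes, threshold 0.05), and the rows of the 9 listed members were read from that fit. The test was checked on simulated data. Ratios within a library were compared with exact permutation tests. GC content and exon overlaps came from GENCODE M21, where 99.7% of the IDs were found, and similar transcripts from BLAST 2.17.0. The GC trend was a lowess curve (span 0.3) per library. Alternatives are given in the closing section. The members and lists were chosen with earlier results of these data known, although the rule for the members is by name. Named were all members, every listed keratin, Vim, Zeb1 and Zeb2, and up to 3 genes per epithelial or mesenchymal list by unadjusted p. Itgam was named as the leukocyte gene with the smallest unadjusted p. The 3 genes nearest to Krt8, Krt18 and Cdh1 in profile were also named, leaving out predicted and clone names. Symbols with several IDs were represented by the most abundant. A limma p sets the difference between the group means against the spread between mice within a group, moderated over genes. An exact p comes from permuting the group labels of the 6 mice.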

Additional observations from a re-analysis of the deposited data

How the results depend on the processing

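The count of the 9 members that passed limma's adjusted threshold was 0 with all libraries and under all 17 alternatives tried. The count over all genes was 7 and moved to 19 with a filter at 5 FPKM, 108 with trimmed-mean scaling, 93 with quantile normalization, 157 with rescaling to nuclear genes and 24 with the GC trend removed and vehicle 1 left out. Leaving out 1 library gave 1 to 673, the highest without vehicle 1. The share of all tested genes higher in ITSN was 64.0% and 49.2% after trimmed-mean scaling. With a replicate block 2 genes and 0 members passed. Same-numbered mice correlated in their deviations at -0.00, -0.14 and 0.24, and 2 of 6 correlated best with their own number, so the numbers were not taken as pairs.

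With the GC trend removed and vehicle 1 left out, the differences turned to -0.14 for Krt8, -0.088 for Krt18 and 0.22 for Krt19, and Krt19 was at 0.075 with a pseudocount of 0.1. With 1 library left out, Krt14 ranged from -0.45 to 0.088, Krt19 from -0.44 to 0.45 and Epcam from -0.029 to 0.40. Removing the GC trend turned the log2 ratio of Krt8 plus Krt18 to Vim to -0.054. It turned that of the 7 lower genes to Krt8 plus Krt18 to 0.027. Ratios with the GC trend removed were added after the data were seen. With 1 library left out, the Krt8 to Krt18 ratio ranged from -0.028 to 0.058, Krt8 plus Krt18 to Vim from 0.22 to 0.26, Cdh1 to Epcam from -0.012 to 0.40 and the 7 lower genes to Krt8 plus Krt18 from -0.21 to 0.20. The cause of these shifts was not tested. FPKM keeps no depth, which limits all genes near 1 FPKM.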
